A study of Rattus norvegicus with 42 samples.

Results

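The blood of rats that had a middle cerebral artery occlusion (MCAO), reperfusion and tissue plasminogen activator (tPA) was compared with the blood of rats that had anesthesia alone, to describe what of the stroke profile was present after tPA. The comparison held 12 of the 42 arrays of the series, the 6 of reperfused-MCAO + tPA and the 6 of anesthesia, chosen by their labels, and every probe set other than the array's controls was tested, 31042 in all. The 42 rats formed 7 groups of 6, and whole blood RNA was measured on the Affymetrix Rat Genome 230 2.0 array. All rats were male Sprague-Dawley rats of 280 to 350 g, and blood was drawn at 24 h by cardiac puncture into tubes that lyse the cells and preserve their RNA. Rats of reperfused-MCAO + tPA had the right middle cerebral artery closed by an intraluminal suture for 2 h, followed by 22 h of reperfusion, and recombinant human tPA at 3.3 mg/kg into the peritoneum at 3 h. Untreated reperfused-MCAO rats had the same occlusion and reperfusion and no tPA. Anesthesia rats had neither occlusion nor tPA, and naive rats had no occlusion, no tPA and no anesthesia before sampling. A further group, tPA without MCAO, had the same tPA dose at 3 h and no occlusion. No group had the neck surgery without occlusion, so surgery and occlusion cannot be told apart in any value given here. Withdrawing the suture restores flow in this model whether or not tPA is given. Values are log2 signals, so a difference of 1 is a 2-fold change.

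Tissue plasminogen activator is a serine protease that turns plasminogen into plasmin, the enzyme that cuts fibrin, and it is the clot-dissolving drug of acute ischemic stroke. After an ischemic stroke neutrophils and monocytes leave the marrow and spleen, enter the blood in larger numbers and carry cytokines, Toll-like receptors and adhesion molecules to the injured vessel wall, while lymphocytes become fewer. Whole blood RNA records both events together. A change in the number of cells of a type cannot be told apart from a change in RNA per cell in bulk blood.

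The arrays carried the RNA of blood. S100a8 of neutrophils averaged 13.5 in reperfused-MCAO + tPA and 13.2 in anesthesia, Cd3e of T cells 10.9 and 11, Pf4 of platelets 13.7 in both groups and Alas2 of red cell precursors 14.6 in both groups, whereas Myh6 of heart muscle, the organ that the needle entered, stayed at 2.27 in both groups and Tnnt2 at 2.36 in both. The hybridization controls, RNA of fixed amount added to every sample, lay between 11.8 and 12.3 in reperfused-MCAO + tPA and between 11.8 and 12.4 in anesthesia. Anesthesia rat 1 stood apart in quality, with the lowest correlation to its group (0.959) and the largest actin 3'-to-5' difference (4.10).

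Some genes of neutrophils, monocytes, Toll-like receptors and cytokine signaling were higher in tPA-treated reperfused-MCAO rats than in anesthesia rats, and some of oxidative phosphorylation and cholesterol synthesis were lower. A probe set was called where the limma p was at most 0.01 and the fold at least 1.2. In all 861 of 31042 probe sets (2.77%) were called, 537 higher (1.73%) and 324 lower (1.04%), where a p of at most 0.01 by itself is reached by 310 probe sets on average when nothing differs. The median size of a called difference was 0.633, and 62 higher and 46 lower probe sets reached 2-fold. None was called at an adjusted p of at most 0.05 by limma (0%, smallest adjusted p = 0.106), though 47 passed without anesthesia rat 1 and 9 without treated rat 2, and 2571 (8.28%) had an unadjusted p under 0.05. Of the 31042 probe sets 112 (0.361%) were higher in all 6 treated rats than in any anesthesia rat, and 69 (0.222%) were lower in all 6. Counted by gene, with each gene represented by its brightest probe set, 319 of 14217 (2.24%) were called higher and 210 (1.48%) lower. Untreated reperfused-MCAO rats against the same anesthesia rats gave 1864 called probe sets (6.00%), of which 656 had an adjusted p of at most 0.05. Without anesthesia rat 6 the 861 became 563.

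The stroke profile was taken from rats that share no array with this comparison, untreated reperfused-MCAO against naive rats, where 897 probe sets were called higher and 591 lower. Of the 897 higher probe sets 237 (26.4%) were called higher in reperfused-MCAO + tPA against anesthesia, beside 1.73% of all probe sets, and 865 (96.4%) had a positive difference. Their median difference was 0.50, against 0.76 in the untreated rats on which they were chosen. Of the 591 lower probe sets 59 (9.98%) were called lower, beside 1.04% of all, and 512 (86.6%) had a negative difference, with a median of -0.21 against -0.56 in the choosing contrast. None of the 1488 was called in the opposite direction. A second profile was chosen the other way, in untreated reperfused-MCAO against anesthesia, and measured in treated against naive rats. There 8.11% of its 1270 higher and 5.72% of its 594 lower probe sets were called in the same direction. The background shares for treated against naive rats were 0.741% higher and 1.21% lower. A positive difference was found for 90.4% of the higher set and a negative one for 77.6% of the lower set. Each set of this second profile held 1 call in the opposite direction. The medians of the choosing contrast are larger in part by choice, since the probe sets were picked for their size there.

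The 6 treated rats did not carry the profile alike. The mean over the 897 higher probe sets was 7.25, 6.85, 7.51, 7.43, 7.88 and 7.45 in treated rats 1 to 6, 7.43 to 8.02 in untreated reperfused-MCAO rats (median 7.77), 6.75 to 7.07 in anesthesia rats (median 6.83) and 6.72 to 7.12 in naive rats. Treated rat 2 lay within the range of the anesthesia rats, and the other 5 lay above all anesthesia and naive rats. Over the 591 lower probe sets the same rat, at 7.55, was the only treated rat above the lowest anesthesia rat. Those levels were 7.24, 7.55, 7.00, 7.24, 6.90 and 7.25 in treated rats 1 to 6, 6.69 to 7.18 in untreated reperfused-MCAO rats, 7.34 to 7.72 in anesthesia rats and 7.52 to 7.69 in naive rats. Without treated rat 2, 416 of the 897 (46.4%) were called higher, with a median of 0.60, beside 2.52% of all probe sets. Without that rat, 85 of the 591 (14.4%) were called lower, beside 1.12% of all probe sets. Its array correlated with its group mates at 0.971 and had the lowest hybridization control signal of the treated rats, 11.8. Its neutrophil list was the second highest of the treated rats (8.07) while its platelet list (8.58) and its NK list (7.17) were the lowest. The labels used here do not say whether its occlusion succeeded, and the part of array quality in its position was not tested.

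**Figure D1:**
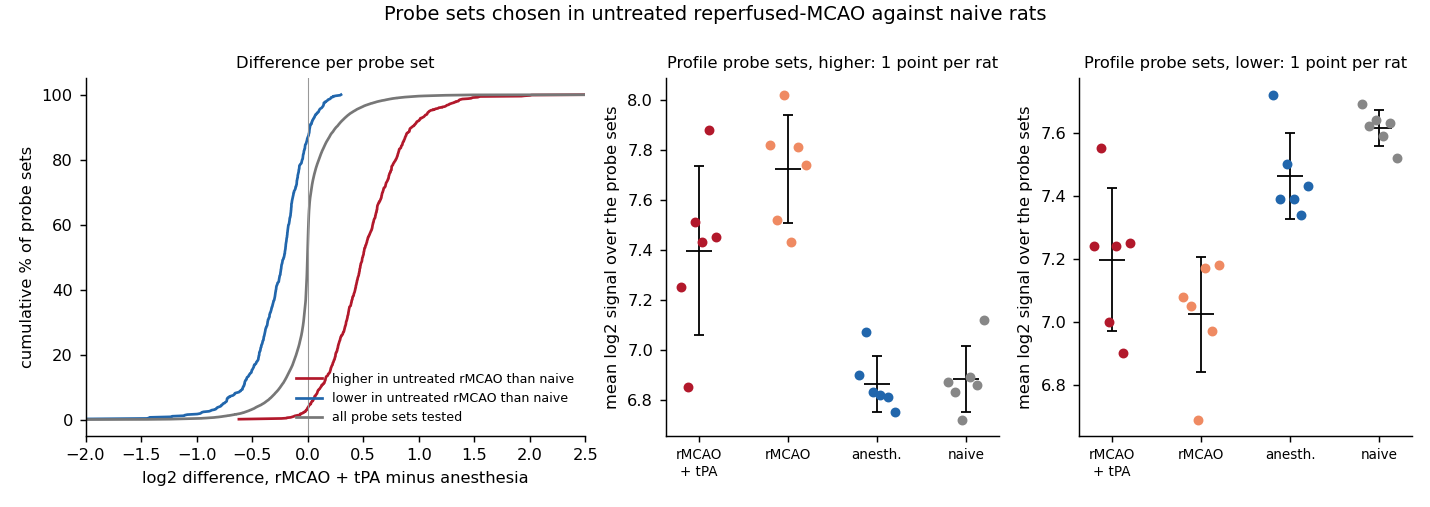
Left, the cumulative share of probe sets by their log2 difference between reperfused-MCAO + tPA and anesthesia (axis limited to the central range), for the 897 higher and 591 lower profile probe sets and for all. Right, 1 point per rat for the mean log2 signal over each set in reperfused-MCAO + tPA, untreated reperfused-MCAO, anesthesia and naive rats (rMCAO is reperfused-MCAO, bars are mean and SD, n = 6). Treated rat 2 sits at 6.85 and 7.55, among the controls, and the other 5 treated rats lie outside the anesthesia range.

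Some genes of neutrophils were higher in treated rats. Of 22 neutrophil genes measured, 4 were called higher and 0 lower, beside 2.24% of all genes called higher, with a median difference of 0.57 against a median of -0.00315 for all genes. Without anesthesia rat 2 the 4 became 7, beside 1.92% of all probe sets called higher. Of the 22 genes 18 were not called and 5 had a negative difference. The list level was 7.69 to 8.68 in treated, 7.02 to 8.1 in anesthesia and 7.42 to 8.3 in naive rats, with overlap. S100a8 was 13.2 to 14 in treated and 12.8 to 13.7 in anesthesia rats, and S100a9 12.2 to 13.2 and 11.8 to 12.6. Csf3r, the receptor of granulocyte colony-stimulating factor, ranged from 9.16 to 10.71 in treated rats (median 10.25), from 9.73 to 11.68 in untreated reperfused-MCAO rats (median 10.26), from 8.20 to 9.45 in anesthesia rats (median 8.73) and from 8.71 to 10.53 in naive rats (median 9.40). The treated and anesthesia ranges overlapped at their ends, and the mean difference was 1.33 ± 0.264 (SE, n = 6 rats each), a 2.52-fold rise (two-sided exact permutation p = 0.00433). Fgr, a Src-family kinase of neutrophils and monocytes, had a treated range of 10.12 to 10.75 (median 10.35) and an anesthesia range of 9.49 to 9.97 (median 9.71). Every treated rat was above every anesthesia rat, and the difference was 0.64 ± 0.116 (exact p = 0.00216, the smallest that 6 against 6 rats allow). Ncf4, a subunit of the oxidase that makes superoxide, was higher by 0.80 ± 0.202 (exact p = 0.00649), with a treated range of 9.73 to 10.98 and an anesthesia range of 9.10 to 10.05 that overlapped. Bcl6, a transcriptional repressor of activated lymphocytes and myeloid cells, was between 10.29 and 10.87 in treated rats and between 9.64 and 10.16 in anesthesia rats, without overlap (difference 0.57 ± 0.114, exact p = 0.00216).

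Of 21 monocyte genes 9 were called higher and 0 lower (beside 2.24% of all genes called higher, median 0.32). Without anesthesia rat 6 the count was 4, beside 1.11% of all probe sets called higher. Of the 21 genes 12 were not called and 3 had a negative difference. The list level was 8.05 to 8.86 in treated, 7.73 to 8.14 in anesthesia and 7.82 to 8.38 in naive rats, with overlap. Csf1r was 8.9 to 9.79 in treated and 8.86 to 9.51 in anesthesia rats, and Cd14 6.05 to 8.09 and 5.29 to 6.18. Vcan, a proteoglycan of classical monocytes, ranged from 7.61 to 9.47 in treated rats (median 7.97), from 6.47 to 8.77 in untreated reperfused-MCAO rats (median 8.57), from 4.70 to 6.93 in anesthesia rats (median 6.38) and from 5.63 to 7.54 in naive rats (median 6.80). All treated rats were above all anesthesia and all naive rats, and the difference from anesthesia was 2.02 ± 0.431, a 4.05-fold rise (exact p = 0.00216). It was called against naive rats too, with a difference of 1.54. A pair of signaling adapters of activating myeloid receptors rose. Tyrobp was higher by 0.61 ± 0.152 (exact p = 0.00433), and Fcer1g, the shared chain of antibody receptors, was higher by 0.46 (exact p = 0.00433), at 13.04 to 13.46 in treated and 12.48 to 13.04 in anesthesia rats. Fcgr1a, the high-affinity receptor for IgG, was higher by 0.67 (exact p = 0.00649), Lgals3, a galactoside-binding lectin of macrophages, by 0.78 (exact p = 0.00433), and Clec7a, the receptor for fungal glucans, by 0.65 (exact p = 0.013). The abundant lysozyme gene Lyz2 was higher by 0.28 ± 0.0646, at 14.27 to 14.59 in treated and 13.95 to 14.22 in anesthesia rats. It lost its call at 0.25 without treated rat 5 or anesthesia rat 6. Ctss, a lysosomal protease of antigen-presenting cells, was between 11.53 and 11.87 in treated rats and between 11.15 and 11.74 in anesthesia rats (difference 0.32, exact p = 0.013).

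The start-site regions of Csf3r and Ctss are shown because both genes rose and both hold a core that the myeloid transcription factor PU.1 recognizes. Each runs from 250 bases before to 50 bases after the RefSeq start in build GRCr8, and capitals mark the match to GAGGAAG, read on either strand. In Csf3r (chr5:143582970-143583269, plus strand) it lies on the gene's strand, and in Ctss (chr2:185775146-185775445, plus strand) on the opposite strand.
Csf3r: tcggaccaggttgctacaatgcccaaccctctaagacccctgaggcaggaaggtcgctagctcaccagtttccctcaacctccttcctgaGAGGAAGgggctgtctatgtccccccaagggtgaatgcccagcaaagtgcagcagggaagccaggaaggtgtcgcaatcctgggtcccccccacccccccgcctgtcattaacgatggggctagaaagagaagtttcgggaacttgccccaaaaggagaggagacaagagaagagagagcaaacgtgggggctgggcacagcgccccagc
Ctss: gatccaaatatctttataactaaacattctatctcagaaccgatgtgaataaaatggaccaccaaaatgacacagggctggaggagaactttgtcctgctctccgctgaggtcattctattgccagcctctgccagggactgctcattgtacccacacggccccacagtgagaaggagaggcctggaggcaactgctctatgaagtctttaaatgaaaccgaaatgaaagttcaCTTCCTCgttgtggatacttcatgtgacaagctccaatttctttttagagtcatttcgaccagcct
Of the monocyte genes with a promoter, 9 of 16 (56.2%) held the core, of the neutrophil genes 4 of 14 (28.6%), and of all 33469 promoters 4149 (12.4%). The lists were counted by gene and the last share by promoter, so the shares are not in the same unit. Among called genes with a promoter the match was found in 2 of 5 monocyte genes, Ctss and Emilin2, and in 1 of 3 neutrophil genes, Csf3r. A match is a description of the letters, and binding of the factor was not measured.

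Receptors and adapters that sense bacteria and viruses were compared next. Of 19 Toll-like receptor genes 5 were called higher and 0 lower (26.3%, beside 2.24% of all genes, median 0.40), and against naive rats 1 was called higher (median 0.16). Against anesthesia the mean level of the list was 7.41 to 7.81 in treated rats and 7.18 to 7.32 in anesthesia rats, without overlap, whereas the naive rats, at 7.15 to 7.62, overlapped the treated ones. Tlr1, which pairs with Tlr2 on bacterial lipoproteins, ranged from 7.54 to 8.32 in treated rats (median 7.86), from 7.94 to 9.65 in untreated reperfused-MCAO rats (median 8.15) and from 6.98 to 7.42 in anesthesia rats (median 7.17). The treated rats lay above the anesthesia rats without overlap, by 0.72 ± 0.147 (exact p = 0.00216). Ly96, the partner of Tlr4 in binding endotoxin, was between 8.39 and 9.40 in treated and between 7.98 and 8.37 in anesthesia rats, again without overlap (difference 0.68 ± 0.163, exact p = 0.00216). Tlr7 and Tlr8, endosomal receptors for single-stranded RNA, were higher by 0.73 and 0.48 (exact p = 0.00866 and 0.00433), and Myd88, the adapter that most of these receptors use, by 0.65 (exact p = 0.0108).

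Of 40 cytokine and cytokine receptor genes 8 were called higher and 0 lower (beside 2.24% of all genes), with a median of 0.21. Against naive rats 1 was called higher and the median was 0.04. Il1b, the inflammatory cytokine interleukin 1 beta, ranged from 10.25 to 11.81 in treated rats (median 11.12), from 11.02 to 11.60 in untreated reperfused-MCAO rats (median 11.42) and from 9.71 to 10.54 in anesthesia rats (median 10.03). The treated and anesthesia ranges overlapped slightly, and the 2.06-fold rise amounted to 1.04 ± 0.249 (exact p = 0.00866). Il17ra, a receptor chain for interleukin 17, was 10.90 to 11.46 in treated and 10.33 to 11.11 in anesthesia rats (difference 0.60, exact p = 0.00649), and Tnfrsf1a, the main receptor for tumor necrosis factor, was 7.51 to 8.60 in treated and 7.09 to 7.62 in anesthesia rats (difference 0.70, exact p = 0.00649). Csf2ra, the receptor chain for granulocyte-macrophage colony-stimulating factor, was higher by 0.87 (exact p = 0.00649), Il10ra, the receptor chain for interleukin 10, by 0.36 (exact p = 0.00649) and Ccr1, a receptor for CC chemokines, by 1.16 (exact p = 0.00866). The chemokines Ccl6 and Ccl4 were higher by 0.55 and 0.75 (exact p = 0.00866 and 0.0173).

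Of 24 leukocyte adhesion genes 4 were called higher (beside 2.24% of all genes, median 0.29), and 1 against naive rats (median 0.27). Pxn, the focal adhesion scaffold paxillin, was between 8.10 and 8.49 in treated rats and between 7.68 and 8.06 in anesthesia rats, without overlap (difference 0.42 ± 0.0798, exact p = 0.00216). Vcl and Tln1, vinculin and talin, which couple integrins to actin, were higher by 0.59 and 0.42 (exact p = 0.013 and 0.0195), and Cd44, the hyaluronan receptor, by 0.57 (exact p = 0.00433). Of 31 hypoxia response genes 4 were called higher (beside 2.24% of all genes) while the median of the list was 0.034, and against naive rats 0 were called by limma. They were Xdh, the oxidoreductase that makes uric acid (0.68, exact p = 0.00649), P4ha1, which hydroxylates collagen (1.09, exact p = 0.00433), Ndrg1, a stress-induced protein (0.84, exact p = 0.00866), and Pgk1, an enzyme of glycolysis (0.40, exact p = 0.00866). In the interferon list 2 of 36 were called higher (5.56%, beside 2.24% of all genes), and 0 against naive rats by limma. The 2 were Oasl (1.05, exact p = 0.0152) and Eif2ak2, the kinase that halts translation on double-stranded RNA. Eif2ak2 was 6.79 to 7.36 in treated rats and 6.28 to 6.72 in anesthesia rats, above all of them (0.56, exact p = 0.00216), while untreated reperfused-MCAO rats spread from 5.85 to 7.53. Leaving out 1 rat gave interferon counts of 1 (without anesthesia rat 1 or 6 or treated rat 3, 4 or 6) to 5 (without treated rat 2), with 4 without anesthesia rat 3. Oasl lost its call when any of 7 single rats was left out, with a difference between 0.90 and 1.06.

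**Figure D2:**
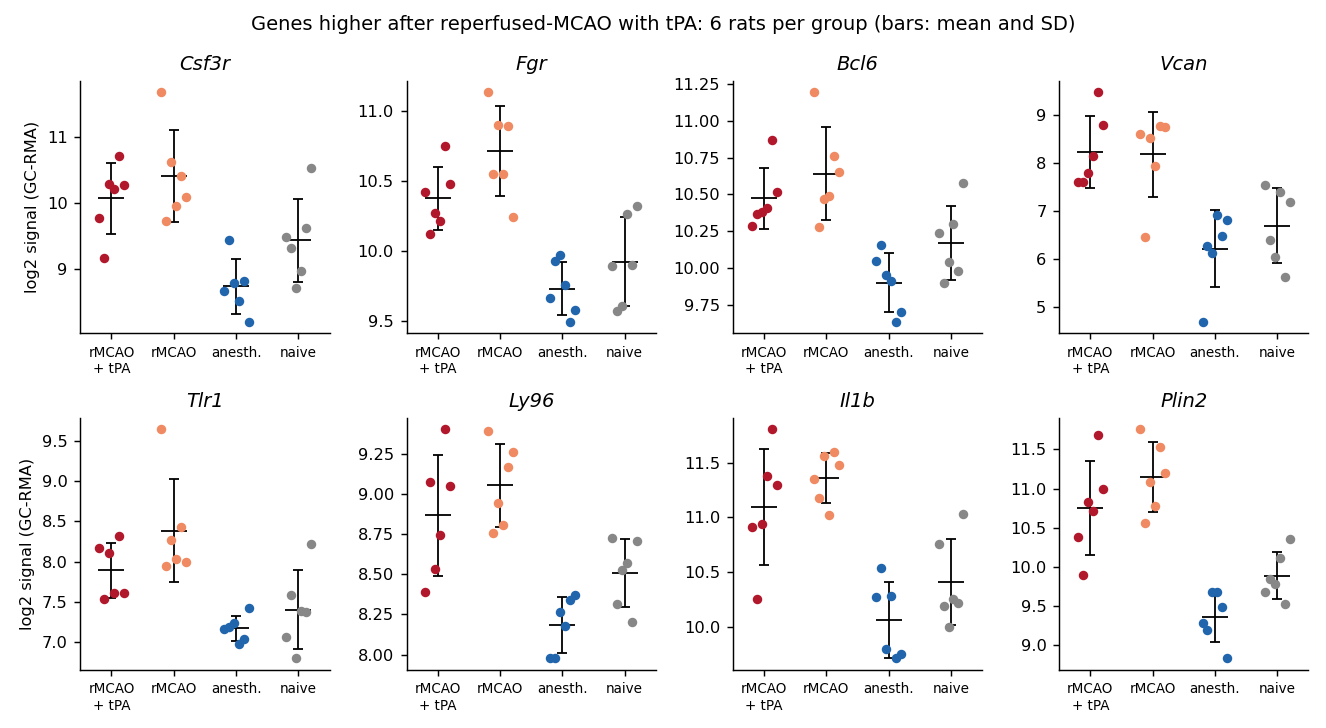
Log2 signal of Csf3r, Fgr, Bcl6, Vcan, Tlr1, Ly96, Il1b and Plin2, 1 point per rat, in reperfused-MCAO + tPA, untreated reperfused-MCAO, anesthesia and naive rats (bars are mean and SD, n = 6). Fgr, Bcl6, Vcan, Tlr1, Ly96 and Plin2 are higher in every treated rat than in any anesthesia rat, while Csf3r and Il1b overlap at the ends of their ranges.

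Genes of cholesterol synthesis were lower in treated rats, also when naive rats were the control. This list of 20 measured genes was written after values had been seen, and 6 were called lower and 0 higher against anesthesia, beside 1.48% of all genes called lower (median -0.21). Against naive rats 7 were called lower, beside 1.81% of all genes called lower, with a median of -0.41. Fdft1, squalene synthase, ranged from 5.01 to 5.72 in treated rats (median 5.12), from 4.94 to 6.12 in untreated reperfused-MCAO rats (median 5.69), from 5.74 to 6.66 in anesthesia rats (median 6.25) and from 5.72 to 6.68 in naive rats (median 6.30). The treated rats were all below the anesthesia rats, a 1.96-fold decrease, with a difference of -0.97 ± 0.174 (exact p = 0.00216), and they differed from naive rats by -1.0, also a call. Sqle, squalene epoxidase, which makes the next intermediate, ranged from 3.21 to 4.98 in treated rats (median 3.42) and from 4.54 to 5.67 in anesthesia rats (median 5.25). Only treated rat 2 reached the anesthesia range, and the difference was -1.45 ± 0.314 (exact p = 0.00649). The treated median lay under 4, the level below which probe sets were taken as dim, so the size of this difference may be bounded by background. It was called against naive rats too, at -1.55. Cyp51 and Msmo1, which remove methyl groups from the sterol ring, differed by -0.73 each (exact p = 0.00433 and 0.0108), and Idi1, an isomerase early in the pathway, by -0.73 (exact p = 0.00866). Insig1, which holds the sterol sensor SCAP in the endoplasmic reticulum, was 7.87 to 8.38 in treated and 8.23 to 9.14 in anesthesia rats (-0.63, exact p = 0.00433). The sterol response element core TCACNCCAC, searched on both strands, was in 0 of the 16 list genes with a promoter. It was in 374 of all 33469 promoters (1.12%), and nothing follows for the factor from its absence in this window.

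Plin2, Abca1 and Cpt1a, which handle lipid inside the cell, rose. They were the 3 called genes among 25 of a list on lipid storage, export and oxidation, beside 2.24% of all genes called higher against anesthesia. This list was also written after values had been seen, and its median was -0.015. Of the 25 genes 14 had a negative difference. Plin2, which coats lipid droplets, ranged from 9.90 to 11.68 in treated rats (median 10.77), from 10.56 to 11.76 in untreated reperfused-MCAO rats (median 11.14), from 8.83 to 9.68 in anesthesia rats (median 9.38) and from 9.52 to 10.36 in naive rats (median 9.81). The treated and anesthesia rats did not overlap, and Plin2 was 2.63-fold higher, by 1.39 ± 0.268 (exact p = 0.00216). Abca1, the exporter of cholesterol to apolipoproteins, was 6.06 to 7.06 in treated rats (median 6.70), 5.87 to 7.05 in untreated reperfused-MCAO rats (median 6.40) and 3.79 to 6.63 in anesthesia rats (median 5.05). It was 2.91-fold higher, by 1.54 ± 0.387 (exact p = 0.00649) with overlap between the ranges. Cpt1a, which admits fatty acids to mitochondria, was higher by 1.21 ± 0.350 (exact p = 0.00649), at 7.56 to 8.59 in treated and 5.97 to 8.33 in anesthesia rats. All 3 were also called against naive rats, with differences of 0.87, 1.30 and 0.70, beside 0.971% of all genes called higher in that comparison.

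Subunits of the respiratory chain were lower in treated rats. Of 52 oxidative phosphorylation genes 15 were called lower and 0 higher (28.8%, beside 1.48% of all genes), and 46 had a negative difference, with a median of -0.26. The list level was 9.43 to 9.58 in treated rats and 9.54 to 9.86 in anesthesia rats. The erythroid list had a median of -0.27, with levels of 10.3 to 11 in treated rats and 10.4 to 11.2 in anesthesia rats. Anesthesia rats differed from naive rats by a median of 0.094 for oxidative phosphorylation and 0.25 for erythroid genes, and the part of red cell RNA in the result was not tested. Cox6c, a subunit of cytochrome c oxidase, ranged from 9.58 to 9.93 in treated rats (median 9.73), from 9.31 to 10.17 in untreated reperfused-MCAO rats (median 9.57), from 10.05 to 10.74 in anesthesia rats (median 10.50) and from 9.56 to 10.52 in naive rats (median 10.23). Each treated rat was below each anesthesia rat, with a difference of -0.73 ± 0.109 (exact p = 0.00216), whereas the naive range held the treated one (difference from naive -0.42, not called). Among complex I subunits Ndufb6 differed by -0.47 (exact p = 0.00433), Ndufa5 by -0.78 (exact p = 0.0108), Ndufs6 by -0.46 (exact p = 0.00866) and Ndufa2 by -0.59 (exact p = 0.00216), the last without overlap. In complex III Uqcr10 differed by -0.33 ± 0.0529 (exact p = 0.00433) and Uqcrq by -0.55 (exact p = 0.00866). Cox5b of complex IV differed by -0.45 (exact p = 0.00649). In rats given tPA without MCAO, Cox6c, Uqcr10 and Ndufb6 differed from the anesthesia rats by -0.97, -0.75 and -0.28. The part of tPA itself in the lower levels was not tested. Without anesthesia rat 1, the array that stood apart in quality, 23 of the 52 were called lower, beside 1.83% of all probe sets. The count was 10 without anesthesia rat 4 or 6 or treated rat 4 or 6, beside 0.705% to 0.767% of all probe sets. Without dim probe sets it was 9, beside 2.17% of the probe sets kept. With naive rats as the control 6 were called lower (beside 1.81% of all genes), with a median of -0.19.

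Of 44 genes for mitochondrial ribosomes and protein import, a list written after values had been seen, 5 were called lower and 0 higher (beside 1.48% of all genes called lower, median -0.19). Leaving out a single rat gave counts of 2 (anesthesia rat 3) to 7 (treated rat 2). It gave 3 without anesthesia rat 2 or treated rat 1, 4 or 6. Timm8b, a chaperone of the space between the mitochondrial membranes, ranged from 7.53 to 8.39 in treated rats (median 7.78), from 7.38 to 8.49 in untreated reperfused-MCAO rats (median 7.51), from 8.66 to 8.92 in anesthesia rats (median 8.81) and from 7.71 to 8.86 in naive rats (median 8.39). The treated and anesthesia ranges did not meet, with a difference of -0.95 ± 0.131 (exact p = 0.00216). Mrpl13, of the large mitochondrial ribosome subunit, was lower by the same pattern, all treated below all anesthesia rats (-0.43 ± 0.0939, exact p = 0.00216). Ribosomal proteins of the cytosol, measured by 42 genes, gave 0 calls by limma in either direction (median -0.034).

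The start-site regions of Ndufs6 and Ndufa5 are shown because both genes fell and both hold the core of the site of NRF1, a transcription factor known for many nuclear genes of mitochondria. Capitals mark the match to this core (GCGCA, any base, GCGC) on either strand. Ndufs6 is at chr1:31797150-31797449 on the plus strand and Ndufa5 at chr4:53971186-53971485 on the minus strand of GRCr8, each printed along the gene's own strand.
Ndufs6: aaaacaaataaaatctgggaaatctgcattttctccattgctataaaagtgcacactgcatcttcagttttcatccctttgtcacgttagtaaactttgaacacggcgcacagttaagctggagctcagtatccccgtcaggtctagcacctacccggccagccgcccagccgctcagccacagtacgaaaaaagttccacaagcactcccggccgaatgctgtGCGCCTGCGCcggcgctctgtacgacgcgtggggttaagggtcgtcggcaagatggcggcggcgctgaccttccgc
Ndufa5: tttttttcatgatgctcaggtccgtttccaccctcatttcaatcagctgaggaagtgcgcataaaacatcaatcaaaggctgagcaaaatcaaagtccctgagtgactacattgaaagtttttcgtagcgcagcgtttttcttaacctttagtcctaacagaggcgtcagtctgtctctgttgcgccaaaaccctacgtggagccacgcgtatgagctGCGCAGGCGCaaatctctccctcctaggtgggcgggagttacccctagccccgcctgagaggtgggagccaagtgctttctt
Of oxidative phosphorylation genes with a promoter 7 of 46 (15.2%) held the core in any promoter. In the mitochondrial ribosome and import list 5 of 37 genes did (13.5%). Of all 33469 promoters 1424 (4.25%) held it. The lists were counted by gene and the last share by promoter, so the shares are not in the same unit. Of the called genes with a promoter the core was in 3 of 14, Atp5po, Ndufa5 and Ndufs6, and in 1 of 4, Mrpl32. Binding of NRF1 was not measured, and its part in the lower levels was not tested.

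**Figure D3:**
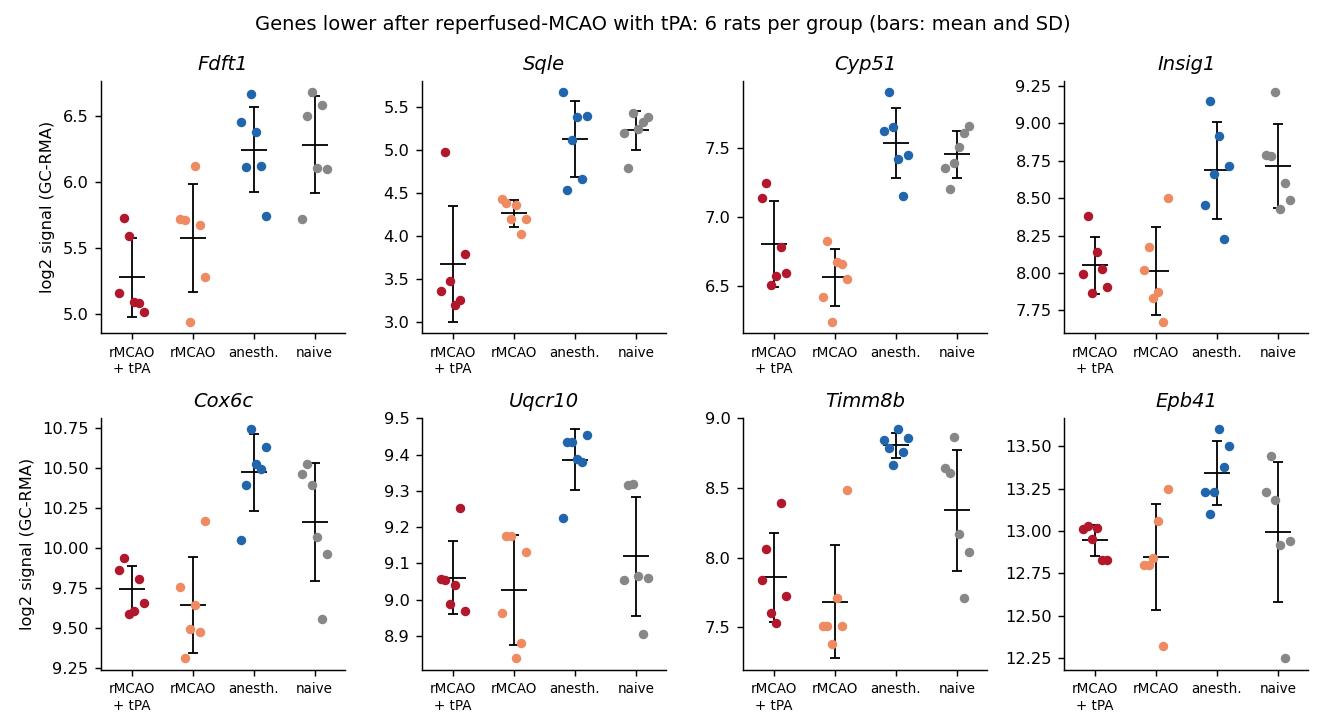
Log2 signal of Fdft1, Sqle, Cyp51, Insig1, Cox6c, Uqcr10, Timm8b and Epb41, 1 point per rat, in reperfused-MCAO + tPA, untreated reperfused-MCAO, anesthesia and naive rats (bars are mean and SD, n = 6). Fdft1, Cox6c, Timm8b and Epb41 are lower in every treated rat than in any anesthesia rat, and naive rats stand near the anesthesia level for the sterol genes Fdft1 and Sqle.

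Counts for T cell genes depended on the choice of control, and those for NK and platelet genes also on treated rat 2. Of all genes 2.24% were called higher and 1.48% lower against anesthesia, and 0.971% higher and 1.81% lower against naive rats. Of 24 T cell genes 0 were called against anesthesia by limma (median -0.16), with a list level of 8.07 to 8.85 in treated rats and 8.46 to 8.91 in anesthesia rats. Against naive rats 8 were called lower (median -0.48), among them Cd3d and Cd3g, chains of the T cell receptor complex, by -0.64 and -0.55. B cell genes gave 0 calls of 14 (median -0.25). Of 19 NK and cytotoxic cell genes 1 was called higher against anesthesia (median 0.47) and 7 against naive rats (median 0.60). Gzmb, the granule protease granzyme B, was that gene, at 6.69 to 8.40 in treated rats (median 7.90), against 5.58 to 7.21 in anesthesia rats (median 6.90). Its difference was 1.15 (exact p = 0.013) from anesthesia, a call lost when any of 8 single rats was left out at differences of 0.94 to 1.2, and 1.05 from naive rats, a call. Without treated rat 2, 8 NK genes were called higher, beside 2.52% of all probe sets. Without anesthesia rat 1 there were 3, beside 2.14%. The NK count was 0 without anesthesia rat 2, 5 or 6, or treated rat 1, 3, 4, 5 or 6. Of 22 platelet genes 1 was called higher and 1 lower (median 0.35). Without treated rat 2, 11 were called higher, beside 2.52% of all probe sets. The higher count was 0 without anesthesia rat 1, 3, 4 or 5, or treated rat 1, 3, 4 or 5. Against naive rats 7 platelet genes were called higher (median 0.74). Timp3, an inhibitor of matrix proteases stored in platelets, spread from 5.36 to 8.95 in treated rats (median 7.71), from 4.82 to 8.91 in untreated reperfused-MCAO rats (median 7.40), from 5.17 to 6.27 in anesthesia rats (median 5.57) and from 4.37 to 6.09 in naive rats (median 5.45). Its difference was 1.85 ± 0.544 (exact p = 0.013) with overlap, and the call was lost without any of 8 single rats, at 1.56 to 1.87. Sparc, a matrix protein of platelet granules, differed by -0.55 (exact p = 0.00433), at 3.08 to 3.79 in treated and 3.76 to 4.36 in anesthesia rats. The treated values lay under the dim level of 4, and without dim probe sets 0 platelet genes were called lower.

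Of 34 erythroid genes 31 had a negative difference (median -0.27) and 1 was called lower, with list levels of 10.3 to 11 in treated rats and 10.4 to 11.2 in anesthesia rats. For this and the following lists, 1.48% of all genes were called lower and 2.24% higher. Epb41, protein 4.1 of the red cell skeleton, was 12.83 to 13.03 in treated and 13.10 to 13.60 in anesthesia rats, below all of them (-0.40, exact p = 0.00216), and differed from naive rats by -0.05. Without anesthesia rat 1 the erythroid count was 6, without anesthesia rat 2 it was 4, and without treated rat 3 or 6 it was 2. In those fits 0.722% to 1.83% of all probe sets were called lower. Genes of cell division had a median of -0.23 over 38 genes with 1 called lower, Ccnb2, a cyclin of mitosis (-1.05, a call lost without any of 6 single rats, at -0.88 to -1.04). Without anesthesia rat 1, 4 of the 38 were called lower, beside 1.83% of all probe sets. Lists on heat shock, NF-kB, store-operated calcium entry, apoptosis, antioxidant defense, coagulation and basophils gave 0 calls by limma in either direction, and their median differences ran from -0.023 to 0.11. Brain and heart lists also gave 0 calls, and Gfap of astrocytes averaged 2.43 in treated and 2.56 in anesthesia rats. Of 17 clock genes 2 were called higher, Per2 by 0.58 (exact p = 0.00866, a call lost without anesthesia rat 3 at 0.55) and Nfil3 by 0.80 (exact p = 0.0173, a call lost in 10 of the fits without 1 rat, at 0.67 to 0.85). In the remaining lists single genes were called higher: Zfp36, which speeds decay of cytokine mRNA and stands in the glucocorticoid and immediate early lists (0.63, exact p = 0.00649), Ctsh, a lysosomal protease in the MHC class II list (0.59, exact p = 0.0108), and Esam, an adhesion molecule of endothelium and platelets (0.79, exact p = 0.0108). Each of these 3 lost its call in 6 or more of the fits without 1 rat. Esam averaged 3.86 in treated and 3.07 in anesthesia rats, under the dim level of 4. Without dim probe sets 0 endothelial genes were called. Without treated rat 2 the glucocorticoid list had 5 genes called higher and the immediate early list 3, beside 2.52% of all probe sets.

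**Figure D4:**
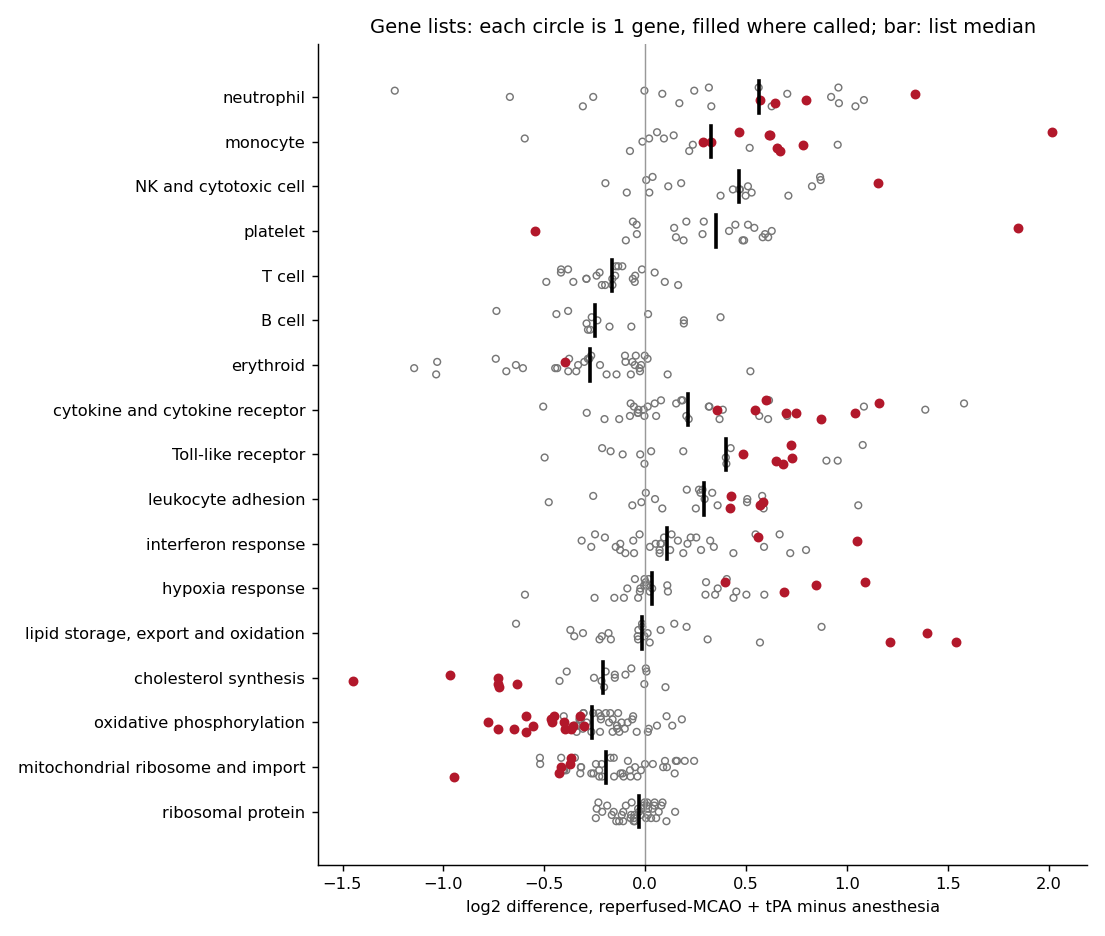
Log2 difference of reperfused-MCAO + tPA minus anesthesia for the genes of 17 lists, 1 circle per gene, filled red where the gene was called, with a bar at each list's median. The called genes of the neutrophil, monocyte, Toll-like receptor, cytokine and adhesion lists lie to the right of 0, and those of the oxidative phosphorylation and cholesterol lists to the left.

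Dgkh and Rab7a, members of none of the inflammatory lists, were among the genes with the smallest p. Dgkh, a kinase that turns diacylglycerol into phosphatidic acid, was between 9.74 and 10.31 in treated rats, between 9.66 and 10.16 in untreated reperfused-MCAO rats, between 9.06 and 9.43 in anesthesia rats and between 9.06 and 9.88 in naive rats. Treated and anesthesia rats did not overlap, and the difference of 0.85 ± 0.106 had the smallest limma p of all probe sets (adjusted p = 0.106, exact p = 0.00216). It was called against naive rats too with a difference of 0.56. Rab7a, a small GTPase of late endosomes, was 10.74 to 11.10 in treated rats and 10.21 to 10.54 in anesthesia rats (0.50 ± 0.0732, exact p = 0.00216), again without overlap. Among the largest called differences of bright genes were Arap3 (1.55 ± 0.388, exact p = 0.00866), Fetub, a fetuin (1.53 ± 0.378, exact p = 0.00866), Tns1, the adhesion protein tensin (1.47 ± 0.351, exact p = 0.00433), and Il22ra2, a soluble receptor that binds interleukin 22 (1.32 ± 0.328, exact p = 0.00866). All 4 ranges overlapped with anesthesia. Abcb4, a phospholipid transporter, was lower in all treated than in all anesthesia rats (-1.33), at 3.22 to 4.07 in treated and 4.53 to 5.86 in anesthesia rats, while naive rats spanned 3.42 to 4.41 and the difference from them was -0.18. Cxcl16, a chemokine that also occurs as a scavenger receptor, differed by -1.55 ± 0.422 (exact p = 0.00866), at 4.93 to 7.57 in treated and 7.22 to 8.57 in anesthesia rats.

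Ctrb1 and Serpinb11 had values at 2 separate levels, low or high, across the series, and their means describe no single rat. Ctrb1, the pancreatic protease precursor chymotrypsinogen B, was high in 6 of 6 treated rats (10.55 to 11.89), in 2 of 6 untreated reperfused-MCAO rats, in 2 of 6 anesthesia rats and in 4 of 6 naive rats, with 2.27 as the lowest anesthesia value and 11.76 as the highest. Serpinb11, a member of the serpin family, was high in 1 of 6 treated rats, in 3 of 6 untreated reperfused-MCAO rats, in 6 of 6 anesthesia rats (6.78 to 8.40) and in 0 of 6 naive rats. Its difference of -4.65 from anesthesia was 0.58 from naive rats. Over all 42 rats 27 were high for Ctrb1 and 24 for Serpinb11.

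List medians were set beside those of the untreated reperfused-MCAO rats. The neutrophil median was 0.57 in treated rats and 1.1 in untreated reperfused-MCAO rats, both against the same anesthesia rats, the monocyte median 0.32 and 0.52, the cytokine median 0.21 and 0.40, and the Toll-like receptor median 0.40 and 0.48. For oxidative phosphorylation it was -0.26 and -0.25, for cholesterol synthesis -0.21 and -0.31, and for NK and cytotoxic cell genes 0.47 and 0.48. The 2 columns share their controls, so their likeness is no separate finding. Tested directly, reperfused-MCAO + tPA against untreated reperfused-MCAO gave 224 called probe sets (0.722%), 88 higher (0.283%) and 136 lower (0.438%), and 0 by adjusted p (the lowest was 0.163). At a p of at most 0.01 alone 310 would be reached on average with no true difference. The 224 also had to reach the fold threshold, so the 224 and the 310 are not like counts. In 3 of the other fits (all 42 arrays together, without untreated rat 2, without treated rat 6) 1 probe set passed the adjustment. Before adjustment 2481 (7.99%) had a limma p under 0.05, where a share of 0.05 is reached on average with no true difference. The 224 became 364 without untreated rat 6. The 95% interval of the direct difference was -1.11 to 0.412 for Csf3r, -0.951 to 1.06 for Vcan and -0.739 to 0.142 for Fdft1, so the fit leaves room for differences of these sizes.

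Several genes called directly between treated and untreated rats overlapped the anesthesia range in treated rats. Cd59b, an inhibitor of complement on cell surfaces, was 12.18 to 12.71 in treated rats, 11.61 to 12.05 in untreated reperfused-MCAO rats and 12.24 to 13.01 in anesthesia rats, and treated rats were above untreated ones without overlap (0.63, interval 0.399 to 0.862). RT1-S3, a class I histocompatibility gene of a family with near-identical copies whose probes may share signal, was 11.76 to 11.99 in treated rats, 11.42 to 11.65 in untreated reperfused-MCAO rats and 11.32 to 12.29 in anesthesia rats (0.40 between treated and untreated). Stk11ip and Fam50a were lower in treated than in untreated rats by 0.53 and 0.46 on the log2 scale, with differences from anesthesia of -0.09 and -0.02. The 26 genes that the study names were chosen in part on these rats, so their direction is not independent evidence. Of them 6 were called higher against anesthesia (Fgr, Bcl6, Xdh, Ly96, Timp3 and Gzmb), beside 2.24% of all genes, and 20 were not called. Directly against untreated rats 4 of the 26 were called lower, beside 0.549% of all genes. Serpinb6a, a protease inhibitor with close copies in the rat genome, was 7.28 to 9.55 in treated rats, 9.53 to 11.12 in untreated reperfused-MCAO rats and 7.74 to 9.70 in anesthesia rats, with a direct difference of -1.93 (interval -2.90 to -0.963). Actn1, which crosslinks actin, Fcgr2b, an inhibitory antibody receptor, and Icam2, an adhesion ligand, had direct differences of -0.51, -0.57 and -0.40. Mmp9, the matrix protease of neutrophil granules, was not called, with 4.77 to 7.56 in treated rats, 6.48 to 9.97 in untreated reperfused-MCAO rats and 5.15 to 7.12 in anesthesia rats (direct difference -1.62, interval -3.11 to -0.118).

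Many calls depended on which control was used. Against naive rats 607 probe sets were called (1.96%), 37.9% of them higher, where 62.4% were higher against anesthesia, and 143 of the 861 kept their call. The neutrophil median was 0.27 with 0 genes called by limma and the monocyte median 0.13 with 1 called, and Csf3r differed by 0.63 and was not called. The anesthesia rats themselves had a neutrophil median of -0.25 and a monocyte median of -0.20 against naive rats. Genes whose call held against both controls included Vcan, Plin2, Abca1, Cpt1a, Dgkh, Gzmb, Timp3 and the 6 cholesterol synthesis genes. Rats given tPA without MCAO gave 4267 called probe sets (13.7%) against the anesthesia rats. Their hybridization controls were lower, at 9.72 to 11.7. Differences there were 0.84 for Csf3r, 1.03 for Vcan, 0.53 for Rab7a, 1.27 for Fetub, -1.59 for Timm8b and -1.04 for Epb41. They were 0.36 for Plin2, -0.19 for Sqle, -0.48 for Gzmb and -0.60 for Timp3.

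**Figure D5:**
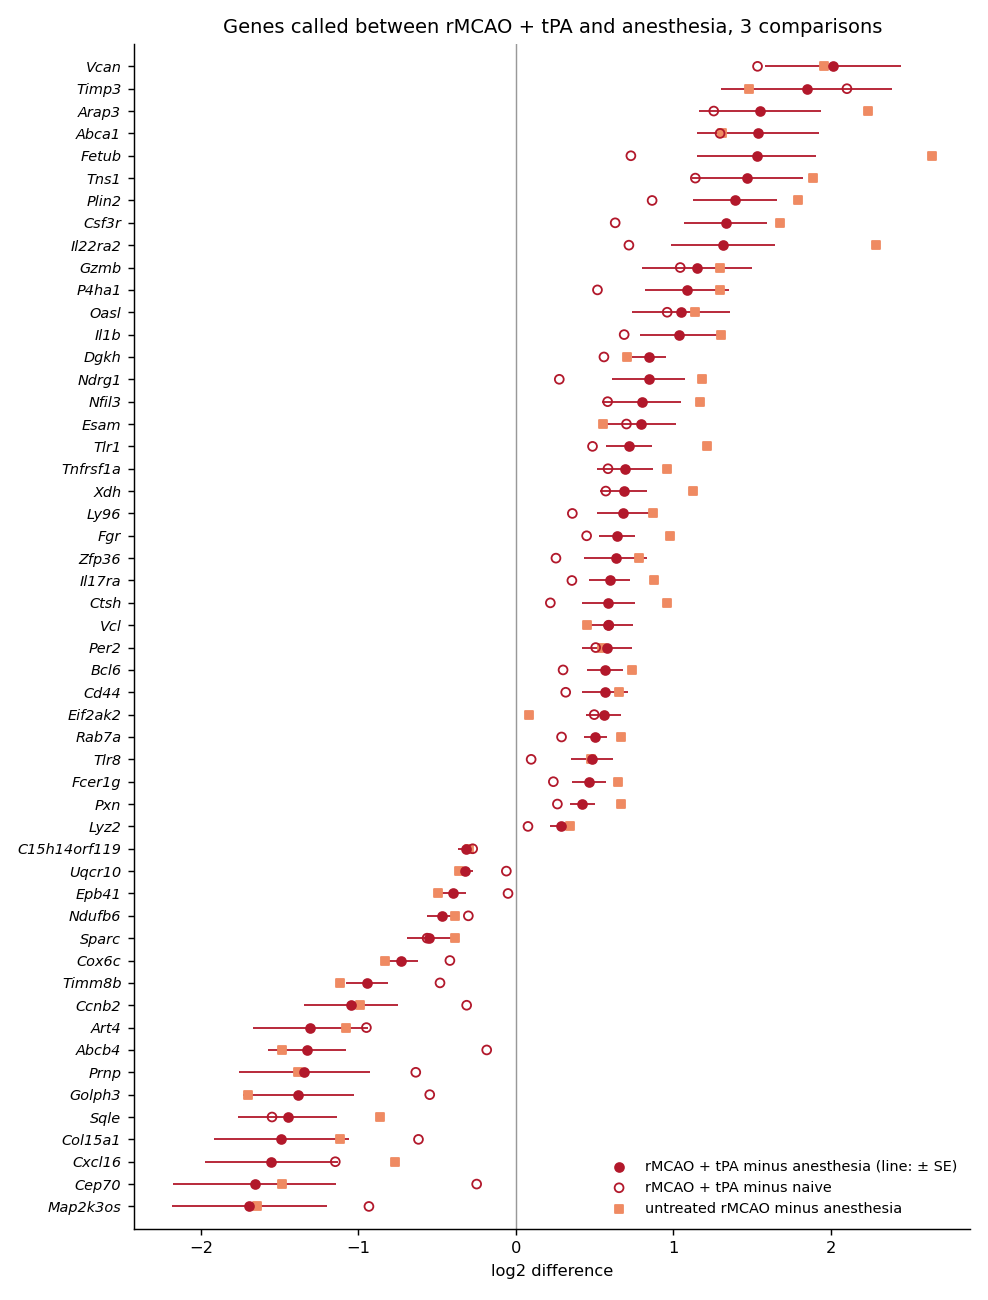
Log2 differences for 52 named genes called between reperfused-MCAO + tPA and anesthesia (filled circles with a line of 1 SE), beside reperfused-MCAO + tPA minus naive (open circles) and untreated reperfused-MCAO minus anesthesia (squares), n = 6 rats per group. The open circles lie nearer 0 than the filled ones for Csf3r (0.63 and 1.33) and Cox6c (-0.42 and -0.73), and about level with them for Sqle (-1.55 and -1.45).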

How the data were processed

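Whole blood RNA of 42 rats was amplified, labeled with biotin and hybridized to Affymetrix Rat Genome 230 2.0 arrays. The deposited log2 values are the authors' GC-RMA signals, per the submitters' processing notes from Partek software, and their settings are not given in the sources used here. Arrays carry no depth, and the number of rats (6 per group) limits the precision. The values were used as deposited. Of 31099 probe sets 57 controls were left out. Of the 31042 tested 20826 had 1 gene symbol in the platform annotation, 436 several and 9780 none, and 20758 symbols were matched to current RefSeq names. Genes take their brightest probe set, 14217 in all. Each comparison was a limma fit (limma 3.58.1, R 4.3.3) on its own 12 arrays, with Benjamini-Hochberg adjustment over all probe sets. A probe set was called at p at most 0.01 and a fold of at least 1.2, the thresholds the study used for treated against untreated rats within a kind of MCAO (its fit over all groups used p at most 0.05). Exact permutation tests were two-sided over 924 divisions of 12 rats.

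Members and gene lists were chosen with earlier results of these data known, 31 lists first and 5 more (cholesterol synthesis, lipid storage, proteasome, mitochondrial ribosome and import, spliceosome) after the values were seen. Of 31 proteasome genes 1 was called higher and 1 lower, and of 19 spliceosome genes 3 were called lower. The shares over all genes were 2.24% for higher and 1.48% for lower calls. Without anesthesia rat 1 the proteasome counts were 0 higher and 5 lower, beside 2.14% and 1.83% over all probe sets. Without treated rat 1 they were 1 higher and 3 lower, beside 1.61% and 0.876%. Named genes were the 10 highest and 10 lowest called genes with a mean of at least 4, the 3 smallest p per list, the 6 highest and lowest profile genes, the study's genes, and the 5 smallest p in this comparison and against untreated reperfused-MCAO. Other genes named, such as Ncf4, Tyrobp, Idi1 and Mrpl13, were chosen after their values were seen. Promoters are from RefSeq (GRCr8). The fit was tested on simulated data. The alternatives covered the test, array weights, scaling, dim probe sets, fold, a hybridization control covariate, the control group, a replicate block and leaving out each rat. Scan dates were not analysed here.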

Additional observations from a re-analysis of the deposited data

Results flagged for a closer look

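In 180 groups of 6 rats checked over the 90 named genes, 14 single values stood apart from the rest of their group, where chance flags about 1 in 20 groups. Among treated rats these were rat 5 for Anxa1 (12, nearest 11.3), Ggt1 (5.64, nearest 4.51) and Uqcr10 (9.25, nearest 9.06), rat 2 for F5 (8.84, nearest 10), Sqle (4.98, nearest 3.79) and Trat1 (6.74, nearest 5.21), rat 3 for Col15a1 (5.3, nearest 3.45) and rat 1 for Serpinb11 (5.9, nearest 2.62). Among anesthesia rats these were rat 1 for Vcan (4.7, nearest 6.12), Uqcr10 (9.22, nearest 9.38) and Mterf2 (6.83, nearest 5.76), rat 2 for Cpne8 (5.93, nearest 4.75) and Jag1 (5.71, nearest 4.89), and rat 6 for Agrn (4.28, nearest 5.9).

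Treated rats differed from untreated reperfused-MCAO rats, in direct limma fits at p of at most 0.01 with none past adjustment, by -0.51 for Actn1, 0.63 for Cd59b, 0.543 for Dpm1, -0.46 for Fam50a, -0.566 for Fcgr2b, -0.403 for Icam2, 0.398 for RT1-S3, -1.93 for Serpinb6a and -0.533 for Stk11ip.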

How the results depend on the processing

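The 861 called probe sets became 1308 with array weights, 479 at a fold of 1.5 and 543 with the replicate block, and 563 to 1232 when 1 rat was left out (1232 without anesthesia rat 1). Those at an adjusted p of at most 0.05 were 0, but 23 with all 42 arrays in one fit, 1 without dim probe sets, 1 with both control groups pooled, and 0 to 47 when 1 rat was left out (47 without anesthesia rat 1, 9 without treated rat 2). The 224 called against untreated reperfused-MCAO became 407 with array weights, 439 with the hybridization control level as a covariate and 168 to 364 when 1 rat was left out (364 without untreated rat 6). The share of the stroke profile called was 26.4% for higher and 9.98% for lower probe sets, 18.6% to 46.4% and 6.94% to 14.4% when 1 rat was left out, 25% of the lower ones chosen by adjusted p, and 8.11% and 5.72% for a profile chosen against anesthesia and measured against naive rats. Background shares, higher and lower, were 1.73% and 1.04% against anesthesia, and 0.741% and 1.21% against naive rats. The cause of the shifts in these counts and shares was not tested. The share of higher calls, 62.4%, was 50.8% with the hybridization covariate (480 higher, 465 lower) and 37.9% with naive rats. Serpinb11 was at 0.58 with naive rats.

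For single genes 1802 of the alternative values kept direction and call, 221 lost the call, 40 gained it and 1 reversed. Of 54 named genes that were called 38 kept the call in every fit without 1 rat, and with naive rats 43 of the 54 lost it and 1, Serpinb11, reversed. Replicate numbers are only names: correlations of same-numbered rats ran from -0.16 to 0.10 and 0 of 6 rats matched their own number best, so the block lowered the count without pairing rats.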
